A study of Mus musculus with 34 samples.

Results

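The pre-B cell receptor and the proteins that carry its first signals were followed through 9 genes in mouse leukaemia cells that were becoming tolerant to a drug. The genes are Igll1, Vpreb1 and Vpreb3, Cd79a and Cd79b, Blnk, Syk, Btk and Plcg2. They were taken by symbol as the parts of 1 pathway, a choice made with earlier results of these data known, and make up 9 of the 19938 genes that the array measured under a single symbol. Each of the 9 had 1 probeset among the 35557 of the array, and no member was lost to a filter on low signal.

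The pre-B cell receptor is the checkpoint of early B cell development. An immunoglobulin heavy chain pairs with a surrogate light chain, made of lambda5 (encoded by Igll1) and VpreB (encoded by Vpreb1), and this pair sits on the cell surface with the signalling chains Ig-alpha (Cd79a) and Ig-beta (Cd79b). The kinase SYK docks on phosphorylated tyrosines of Ig-alpha and Ig-beta and phosphorylates the adaptor BLNK, also called SLP-65. BLNK brings together the kinase BTK and the phospholipase PLCG2, which opens the calcium and protein kinase C branches. Vpreb3 encodes a VpreB-related protein that binds immunoglobulin chains inside the cell. For short, Vpreb3 is counted below among the receptor chains with Igll1, Vpreb1, Cd79a and Cd79b, though its protein is not among these surface parts. In the mouse, loss of BLNK is known to predispose to pre-B cell leukaemia. SYK, BTK and PLCG2 are not confined to B cells: mast cells use them below the high-affinity IgE receptor, and macrophages use them below Fc receptors.

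Total RNA came from 2 lines of mouse pre-B acute lymphoblastic leukaemia, each grown from 1 BCR/ABL transgenic mouse. The line 8093 is inbred C57Bl/6J, while the line Bin-2 has a mixed background. BCR/ABL is the fusion tyrosine kinase that drives this leukaemia. All groups were grown on irradiated mouse embryonic fibroblasts in medium with interleukin-3 at 10 ng/ml. Nilotinib, an inhibitor of the ABL kinase, was given at 20 nM to 8093 and at 50 nM to Bin-2. Lonafarnib, a farnesyltransferase inhibitor, was given at 1 uM to 8093 and at 0.25 uM to Bin-2, by the treatment protocol of the labels (the series' design text has a different unit). RNA was taken before drug, at a midpoint when most cells were dead, and at an end when viability was back at about 90%, always with the drug still present after the start. The midpoint was day 3 with 5 to 10% viable cells, except for 8093 with lonafarnib, where it was day 4 with 20%. The ends were day 20 for 8093 with nilotinib, day 26 for 8093 with lonafarnib, day 21 for Bin-2 with nilotinib and day 30 for Bin-2 with lonafarnib. Each of the 12 groups holds 3 arrays from separate plates of the line, except both ends of 8093, which hold 2. Since each line is 1 leukaemia, the errors and p-values cover the spread between plates of that leukaemia. Doses and end days differed between the lines, as did the day and viability of the lonafarnib midpoint. A difference between lines in response is therefore also a difference in these.

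The sequence just before a start site is shown for Igll1, Vpreb1, Vpreb3 and Cd79a, receptor genes that fell together in 1 group. It is also shown for Blnk and Btk, which did not fall there. Cd79b fell with the other receptor genes but had no promoter entry. RefSeq promoters on the build GRCm38.p6 were matched by symbol for 8 of the 9 members, all but Cd79b. The 250 bases before the start are printed 5′ to 3′ on the gene's own strand. The windows of Vpreb3, Btk and Syk lie within the annotated span of the gene, so they do not precede its outermost start. Capitals mark 4 motifs searched on both strands. They are an E-box (CAGGTG), the octamer (ATTTGCAT), a core of the early B cell factor motif (CCCNNGGG) and a core of the PU.1 motif (GAGGAA).
Igll1, chr16:16863986-16864235, minus strand: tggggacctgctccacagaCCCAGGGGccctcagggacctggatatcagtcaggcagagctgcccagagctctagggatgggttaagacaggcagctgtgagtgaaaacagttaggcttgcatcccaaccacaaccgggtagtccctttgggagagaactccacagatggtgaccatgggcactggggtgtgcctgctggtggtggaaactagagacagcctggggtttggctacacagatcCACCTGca
Vpreb1, chr16:16869256-16869505, minus strand: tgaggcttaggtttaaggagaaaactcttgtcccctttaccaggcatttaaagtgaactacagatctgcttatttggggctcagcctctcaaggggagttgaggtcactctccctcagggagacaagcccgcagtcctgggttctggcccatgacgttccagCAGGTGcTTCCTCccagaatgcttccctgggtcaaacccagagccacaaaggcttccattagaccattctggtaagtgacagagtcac
Vpreb3, chr10:75948050-75948299, plus strand: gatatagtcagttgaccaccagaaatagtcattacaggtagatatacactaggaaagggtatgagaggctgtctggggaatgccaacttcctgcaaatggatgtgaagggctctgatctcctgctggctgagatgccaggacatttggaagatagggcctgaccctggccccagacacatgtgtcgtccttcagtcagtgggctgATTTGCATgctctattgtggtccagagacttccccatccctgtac
Cd79a, chr7:24897247-24897496, plus strand: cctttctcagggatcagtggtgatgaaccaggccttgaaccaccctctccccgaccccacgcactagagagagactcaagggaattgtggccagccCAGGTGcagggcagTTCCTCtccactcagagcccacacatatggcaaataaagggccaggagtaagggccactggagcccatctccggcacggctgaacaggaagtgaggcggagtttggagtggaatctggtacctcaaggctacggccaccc
Blnk, chr19:40994222-40994471, minus strand: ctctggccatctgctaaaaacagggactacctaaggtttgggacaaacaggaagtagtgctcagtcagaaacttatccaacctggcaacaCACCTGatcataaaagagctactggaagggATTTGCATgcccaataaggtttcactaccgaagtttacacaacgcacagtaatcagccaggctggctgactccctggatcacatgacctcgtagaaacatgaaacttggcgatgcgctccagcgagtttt
Btk, chrX:134583141-134583390, minus strand: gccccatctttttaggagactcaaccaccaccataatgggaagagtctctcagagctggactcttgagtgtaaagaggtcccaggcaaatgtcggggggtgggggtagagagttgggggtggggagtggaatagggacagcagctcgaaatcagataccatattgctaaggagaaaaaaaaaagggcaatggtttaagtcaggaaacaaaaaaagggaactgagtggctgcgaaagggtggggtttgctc
Of 32841 promoter windows of this length, 17.2% hold the E-box, 1.6% the octamer, 11.8% the early B cell factor core and 23.3% the PU.1 core. The Igll1 window holds an E-box 8 bases before the start and the early B cell factor core farther out. Vpreb1 and Cd79a each hold an E-box next to a PU.1 core. Vpreb3 holds the octamer 45 bases before its start and no E-box. Blnk holds both an E-box and the octamer, and the Btk window holds none of the 4 motifs. The E-box also occurs in the windows of Plcg2 and of both start sites of Syk. No pair of these matches overlaps, and each match describes letters only, not a bound site. Igll1 and Vpreb1 lie next to each other on chromosome 16, with 0 protein-coding genes between them.

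Values are log2 probeset signals, so a difference of 1 is a factor of 2. Arrays of 1 group correlated at 0.984 to 0.996 over the 19938 genes, and no array was a copy of another. As a measure of dim signal, 95% of 1015 olfactory receptor genes had a group mean under 4.711. Values were compressed at the 8093 nilotinib midpoint (mean interquartile range 3.03) and the Bin-2 lonafarnib midpoint (3.16), against 3.42 to 3.55 in the other 10 groups. A gene was called where its Benjamini-Hochberg adjusted p over all 19938 genes was below 0.05 in limma. Both start groups of a line carry no drug, and between them 0 genes were called in either line. Unadjusted, 3 members had p below 0.05 between the 8093 starts and 0 between the Bin-2 starts. These were Blnk and Plcg2, lower in the lonafarnib start by 0.38 each, and Vpreb3, higher by 0.29.

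**Figure D1:**
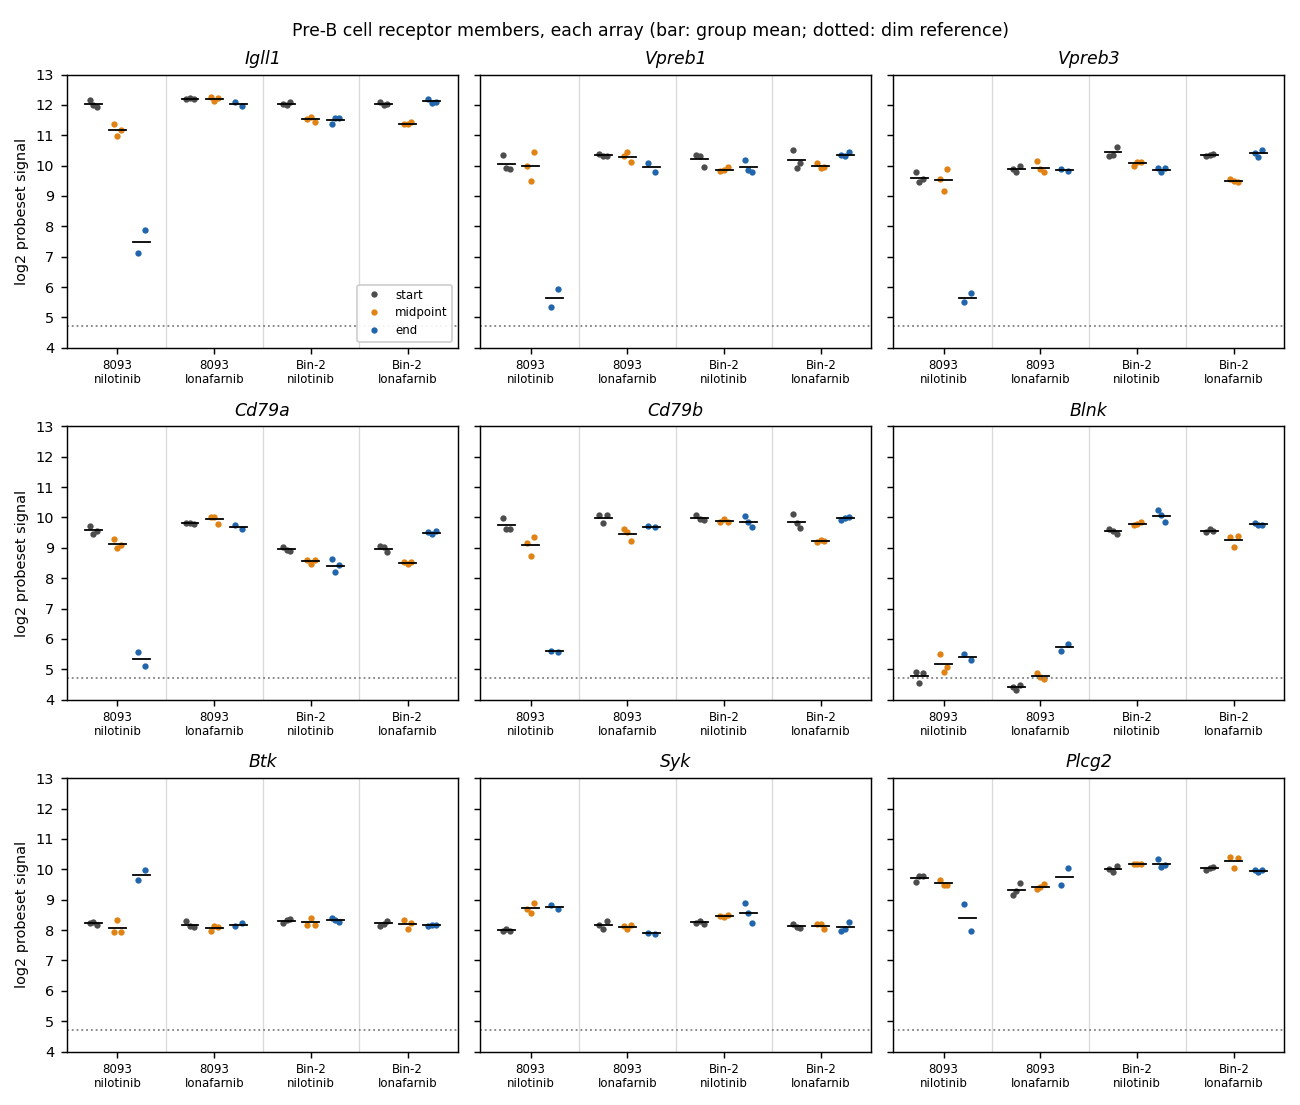
Log2 probeset signal (y axis) of each member in all 34 arrays, by line and drug (x axis); points are arrays, bars are group means and the dotted line is the dim reference of 4.711. The 5 receptor chains drop at the 8093 nilotinib end, and Blnk separates the lines, with 8093 arrays at 4.32 to 5.85 and Bin-2 arrays at 9.01 to 10.23.

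At the start, 8 of the 9 genes had group means well above the dim reference in both lines, and the adaptor Blnk gave the widest line difference among the members. Blnk read 4.92, 4.56 and 4.87 in the 8093 nilotinib start arrays and 4.40, 4.32 and 4.48 in the lonafarnib start arrays. In Bin-2 it read 9.62, 9.55 and 9.46, then 9.52, 9.61 and 9.55. All 8093 start values therefore lie around the dim reference, and no Bin-2 array comes near them. Where 1 side of a comparison has a group mean under the dim reference, each of its arrays below the reference was set to it, and the difference is given as a lower bound. Blnk was at least 27.5-fold higher in Bin-2 (n = 6 arrays a line, limma adjusted p = 4.24e-26 for the measured means of 9.55 and 4.59). It is the member with the widest range of group means, 5.65, from 4.40 at the 8093 lonafarnib start to 10.06 at the Bin-2 nilotinib end. In every one of its 12 groups Blnk kept to the side of its line: the lowest Bin-2 group mean was 9.26 and the highest 8093 group mean was 5.72.

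Across the 9 members, 4 were called between the lines at the start, beside 20.1% of all genes. Vpreb3 was also higher in Bin-2, by 0.64 ± 0.10, with starts at 10.33 to 10.63 there and at 9.47 to 10.00 in 8093. Plcg2 was higher by 0.51 ± 0.11 (adjusted p = 0.000793), with Bin-2 starts at 9.93 to 10.10 and 8093 starts at 9.15 to 9.78. Cd79a ran the other way and was lower in Bin-2 by 0.73 ± 0.08 on the log2 scale. Its Bin-2 starts lay at 8.85 to 9.05 and its 8093 starts at 9.44 to 9.82, so that the 12 arrays do not overlap. The other 5 members differed by 0.11 or less. Igll1, for which the difference was -0.07, had a 95% interval of -0.26 to 0.11. Syk had the largest of these differences, 0.11, with an interval of -0.06 to 0.28.

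The surrogate light chain genes had by far their lowest signal in 1 group, the cells that grew out of 8093 under nilotinib. Igll1 read 12.16, 11.98 and 11.92 at the start of that course, 11.37, 10.97 and 11.18 at the midpoint, and 7.11 and 7.89 at the end. The end arrays lie far below all others, and the midpoint arrays lie just below the start without overlap. Igll1 was 23.0-fold lower at the end than at the start (-4.52 ± 0.14, limma adjusted p = 6.07e-21) and 1.80-fold lower at the midpoint (-0.84 ± 0.13, adjusted p = 2.09e-06). From midpoint to end it fell by 3.68 ± 0.14. The end level of 7.50 ± 0.55 (SD, n = 2) is still well above the dim reference.

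Vpreb1, which encodes the other part of the surrogate light chain, fell by a different path. Its arrays read 10.35, 9.91 and 9.90 at the start, 10.00, 9.49 and 10.44 at the midpoint, and 5.34 and 5.94 at the end. Start and midpoint overlap, and the end stands alone. The midpoint change was -0.08 ± 0.19 (adjusted p = 0.752), with an interval of -0.46 to 0.30, and the end change was -4.42 ± 0.21, a 21.4-fold lower signal. Vpreb3 followed Vpreb1: 9.78, 9.47 and 9.57 at the start, 9.57, 9.15 and 9.89 at the midpoint, and 5.50 and 5.80 at the end. Its midpoint also overlaps the start (-0.07 ± 0.13), and its end was 15.5-fold lower (-3.96 ± 0.15). Vpreb2, a near-identical copy of Vpreb1 whose probes may pick up the same transcripts, fell by 2.01 at this end, so the values of the pair may be mixed. Vpreb2 was named as a relative after its values were seen.

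The signalling chains fell with the surrogate light chain. Cd79a read 9.73, 9.44 and 9.54 at the start of the 8093 nilotinib course, 9.28, 8.99 and 9.10 at the midpoint, and 5.56 and 5.10 at the end. Cd79b read 9.98, 9.64 and 9.62, then 9.18, 8.72 and 9.35, then 5.61 and 5.57. For both genes the 3 time points are separate, each lower than the one before. Cd79a fell by 0.45 ± 0.12 at the midpoint (adjusted p = 0.00204) and was 19.0-fold lower at the end (-4.24 ± 0.13, adjusted p = 5.24e-21). Cd79b fell by 0.66 ± 0.14 at the midpoint (adjusted p = 0.000204) and was 17.8-fold lower at the end (-4.16 ± 0.15). The Cd79a midpoint call did not hold under quantile normalization, where the change was -0.17 (adjusted p = 0.212). Ighm, the heavy chain gene that would complete the receptor, read 4.90 to 5.99 across all 34 arrays and was called in none of the comparisons with a start.

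Below the receptor, the members of the 8093 nilotinib course did not share a direction. Syk, the kinase that docks on the receptor chains, read 7.98, 8.03 and 7.96 at the start, 8.71, 8.55 and 8.88 at the midpoint, and 8.84 and 8.71 at the end. Both later groups lie above every start array and overlap each other. Syk rose by 0.72 ± 0.12 at the midpoint (1.65-fold, limma adjusted p = 8.33e-06) and by 0.78 ± 0.13 at the end (1.72-fold, adjusted p = 1.18e-05).

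Btk, the TEC family kinase, rose later. It read 8.23, 8.27 and 8.16 at the start, 7.95, 8.34 and 7.95 at the midpoint, and 9.66 and 9.97 at the end. Start and midpoint overlap, and the end arrays are the highest of all 34. The end change was 1.60 ± 0.12, a 3.03-fold rise (adjusted p = 2.15e-12), and the midpoint change was -0.14 ± 0.11 (adjusted p = 0.297). Median centring, which moved the median change of all genes at this midpoint by -0.17, gave Btk a change of -0.31 there (adjusted p = 0.0229), as did leaving out midpoint replicate 2 (-0.27, adjusted p = 0.0438). In the other 11 groups the mean of Btk stayed between 8.07 and 8.33.

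Plcg2, the phospholipase, fell. It read 9.57, 9.77 and 9.78 at the start, 9.65, 9.49 and 9.48 at the midpoint, and 8.84 and 7.96 at the end. Both end arrays lie below the rest, and they differ from each other more than those of any other member there. Plcg2 was 2.47-fold lower at the end (-1.31 ± 0.17, adjusted p = 2.29e-07). Blnk rose from its low level, with 5.49, 4.91 and 5.07 at the midpoint and 5.50 and 5.32 at the end. The end change was 0.63 ± 0.15 (adjusted p = 0.000607) and left Blnk at 5.41, far under every Bin-2 array. At the midpoint Blnk changed by 0.38 ± 0.13 (adjusted p = 0.0169), a call that was lost under quantile normalization (0.18, adjusted p = 0.281) and median centring (0.21, adjusted p = 0.208).

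In all, 9 of 9 members were called at the 8093 nilotinib end against the start, 3 up and 6 down, where 44.5% of all genes were called, 19.6% up and 24.9% down. The median change of the members was -3.96, beside -0.15 over all genes. The arrays of both groups did not overlap for 9 of the 9, as for 61.6% of all genes. At the midpoint 5 of 9 were called, 2 up and 3 down, where 50.1% of all genes were called, 22.6% up and 27.5% down. The share of members called at the midpoint is close to that of all genes. From midpoint to end 7 of 9 were called, 1 up and 6 down, where 54.5% of all genes were called, 26.7% up and 27.8% down.

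Markers of other blood cells moved in the same arrays. The summed marker level is given as a mean log2 signal over each list. The 16 mast cell genes stood at 3.98 to 4.21 at the start of this course, 8.72 to 9.61 at the midpoint and 11.01 to 11.02 at the end. At the end 15 of 16 were called up, and at the start 15 of 16 had lain under the dim reference. Fcer1a and Ms4a2, which encode 2 chains of the IgE receptor, rose by at least 8.13 and 7.41 (limma adjusted p = 1.36e-18 and 8.04e-19), and the mast cell protease gene Cpa3 rose by at least 8.72 (adjusted p = 1.18e-20). The 17 macrophage genes stood at 5.13 to 5.20, 8.07 to 9.01 and 7.68 to 9.15, with 16 of 17 up at the end and Lyz2, the lysozyme gene, up by 7.80. The 19 B-lineage genes stood at 8.42 to 8.55, 8.21 to 8.70 and 5.97 to 6.17, and 18 of 19 were down at the end with a median of -2.69. At the midpoint mast cell and macrophage genes were already high, with 16 of 16 and 15 of 17 called up, while the B-lineage genes gave 4 up and 4 down of 19. Genes of the fibroblast feeder stood at 5.01 to 5.08 at the start, 5.90 to 6.18 at the midpoint and 5.18 to 5.30 at the end. Of these 19 genes, 13 had a midpoint mean above the dim reference, beside 12 at the start and 12 at the end. Col1a1 had means of 6.09, 7.61 and 6.15 at these times, while Dcn, Lum and Postn stayed under the dim reference. Of the other lists, 7 of 8 erythroid and megakaryocyte genes rose at the end, granulocyte genes gave 3 up and 2 down of 13, and 5 of 13 T and NK cell genes fell. In RNA from whole cultures, fewer cells of a type and less RNA of a gene in each cell cannot be told apart. The part of these markers in the members' changes was not tested.

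**Figure D2:**
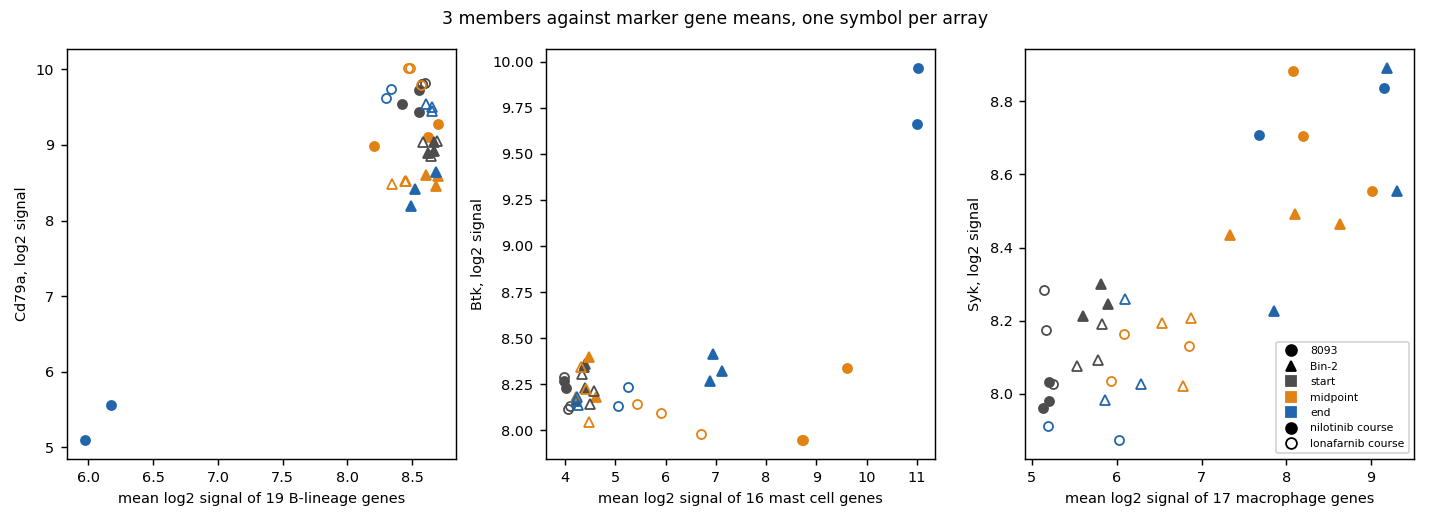
Each symbol is 1 array, with the log2 signal of Cd79a, Btk or Syk (y axes) against the mean log2 signal of B-lineage, mast cell or macrophage genes (x axes); shape gives the line, colour the time and filling the drug. Both 8093 nilotinib end arrays sit apart for Cd79a and Btk, while the nilotinib midpoints and ends of both lines lie to the right for Syk.

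Under lonafarnib, 8093 kept the receptor chains. Igll1 read 12.20, 12.22 and 12.18 at the start, 12.24, 12.14 and 12.24 at the midpoint, and 12.10 and 11.97 at the end. The start and midpoint overlap, and both end arrays lie lower by a small step. The end change was -0.16 ± 0.14 (limma adjusted p = 0.585), with an interval of -0.45 to 0.13, which holds no fall of the size seen under nilotinib. Vpreb1 (-0.40 ± 0.21), Vpreb3 (-0.04 ± 0.15), Cd79a (-0.13 ± 0.13) and Cd79b (-0.30 ± 0.15) were also not called at the end. The lower bounds of their intervals were -0.82, -0.34, -0.39 and -0.61.

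Blnk was the member called at this end. It read 4.40, 4.32 and 4.48 at the start, 4.88, 4.76 and 4.69 at the midpoint, and 5.60 and 5.85 at the end. The 3 time points do not overlap. All 3 start arrays lie under the dim reference, so the end was at least 2.02-fold higher than the start (limma adjusted p = 2.74e-07 for the measured means of 5.72 and 4.40), and Blnk rose by 0.95 ± 0.15 from the midpoint. The end mean of 5.72 lies far under the lowest Bin-2 group mean of 9.26. At the midpoint, with a mean of 4.78 close to the dim reference, Blnk missed the threshold (adjusted p = 0.0642) and passed it in 4 alternative fits.

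Across the members, 1 of 9 was called at the lonafarnib end of 8093, where 8.71% of all genes were called. At the lonafarnib midpoint 1 of 9 was called too, beside 10.8% of all genes. That was Cd79b, which read 10.09, 9.81 and 10.09 at the start and 9.61, 9.52 and 9.21 at the midpoint. The midpoint arrays all lie below the start arrays (-0.55 ± 0.14, adjusted p = 0.00827). Without start replicate 1 its adjusted p was 0.0544, and without midpoint replicate 3 it was 0.0835. The end arrays of Cd79b, at 9.73 and 9.67, lie between both sets. From midpoint to end 1 of 9 was called, Blnk, beside 6.26% of all genes. Mast cell genes rose here as well, from 3.97 to 4.09 at the start to 5.43 to 6.71 at the midpoint and 5.05 to 5.25 at the end. Macrophage genes stood at 5.14 to 5.24, 5.93 to 6.86 and 5.19 to 6.02, with Lyz2 at a mean of 5.01 at the start and 10.12 at the midpoint, and at 7.12 and 9.87 in the end arrays. B-lineage genes stood at 8.57 to 8.60, 8.47 to 8.57 and 8.30 to 8.34, with 6 of 19 down and 3 up at the end. The part of these markers in the changes of Blnk and Cd79b was not tested. Plcg2 missed the threshold at the end (0.44 ± 0.17, adjusted p = 0.129), and without end replicate 1 its change was 0.73 (adjusted p = 0.0360).

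In Bin-2 the receptor chains moved by less than 1 log2 unit under either drug. With nilotinib, Igll1 read 12.04, 11.99 and 12.09 at the start, 11.54, 11.60 and 11.45 at the midpoint, and 11.36, 11.55 and 11.58 at the end. Midpoint and end overlap each other and lie below every start array. The change was -0.51 ± 0.13 at the midpoint (adjusted p = 0.0176) and -0.54 ± 0.13 at the end (1.45-fold lower, adjusted p = 0.00448). The midpoint call rests on single arrays: it was lost without start replicates 1 (adjusted p = 0.0554) or 3 (0.0805) and without midpoint replicates 1 (0.0682) or 3 (0.0877).

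Cd79a followed Igll1 in this course. It read 9.03, 8.91 and 8.89 at the start, 8.61, 8.46 and 8.59 at the midpoint, and 8.64, 8.19 and 8.42 at the end. The later groups overlap and lie below the start. Cd79a fell by 0.53 ± 0.12 at the end (adjusted p = 0.00256). Its midpoint change was not called in the main fit. It was called under some alternatives, among them median centring (-0.43, limma adjusted p = 0.0384) and a trended robust prior (-0.40, adjusted p = 0.0274). Vpreb3 read 10.33, 10.35 and 10.63 at the start and 9.93, 9.78 and 9.91 at the end, without overlap (-0.56 ± 0.13, adjusted p = 0.00539). Vpreb1 (-0.26 ± 0.19) and Cd79b (-0.12 ± 0.14) were not called.

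Blnk rose in Bin-2 under nilotinib from its already high level. It read 9.62, 9.55 and 9.46 at the start, 9.76, 9.77 and 9.85 at the midpoint, and 10.23, 10.10 and 9.84 at the end. The end arrays lie above all start arrays and reach into the midpoint arrays (0.51 ± 0.13, adjusted p = 0.00902). Without start replicate 3 the adjusted p of Blnk was 0.0526 and that of Vpreb3 was 0.0573, which took the count from 4 of 9 called to 2. Without end replicate 1 the adjusted p of Blnk was 0.0874. Syk read 8.25, 8.30 and 8.21 at the start and 8.89, 8.55 and 8.23 at the end. End replicate 3 lies among the start arrays and the others above them, and Syk missed the threshold (0.30 ± 0.12, adjusted p = 0.119). Without that array its change was 0.47 (adjusted p = 0.00600). The same array had the lowest macrophage signal of its group, 7.86 against 9.18 and 9.30. The part of those cells in the Syk signal was not tested.

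For Bin-2 with nilotinib, 1 of 9 members was called at the midpoint, beside 3.47% of all genes, and 4 of 9 at the end, 1 up and 3 down, beside 8.89% (4.95% up and 3.94% down). From midpoint to end limma called 0 of 9, beside 1.41% of all genes, and 0 had an unadjusted p below 0.05. Macrophage genes were high in these arrays, at 5.60 to 5.90 at the start, 7.34 to 8.63 at the midpoint and 7.86 to 9.30 at the end. Mast cell genes stood at 4.38 to 4.39, 4.22 to 4.61 and 6.88 to 7.13. B-lineage genes kept their level, at 8.62 to 8.67, 8.60 to 8.70 and 8.49 to 8.69, with 2 of 19 down and 1 up at the end. The part of these markers in the members' changes was not tested.

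With lonafarnib, 4 of the 5 receptor chains of Bin-2 fell at the midpoint and came back by the end. Vpreb3 read 10.33, 10.36 and 10.39 at the start, 9.55, 9.48 and 9.47 at the midpoint, and 10.40, 10.27 and 10.52 at the end. The midpoint stands clear below, and start and end overlap. Vpreb3 was 1.82-fold lower at the midpoint (-0.86 ± 0.13, limma adjusted p = 0.000101) and rose by 0.90 ± 0.13 from there to the end. Igll1 took the same course with 12.08, 11.99 and 12.04, then 11.36, 11.36 and 11.43, then 12.19, 12.07 and 12.09. It fell by 0.65 ± 0.13 at the midpoint (adjusted p = 0.000881) and rose by 0.73 ± 0.13 afterwards.

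Cd79b and Cd79a dipped too, but ended differently. Cd79b read 10.12, 9.81 and 9.65 at the start, 9.21, 9.24 and 9.22 at the midpoint, and 9.91, 10.00 and 10.00 at the end. It fell by 0.64 ± 0.14 (adjusted p = 0.00232) and came back among the start arrays. Cd79a read 9.05, 9.04 and 8.85, then 8.52, 8.48 and 8.52, then 9.51, 9.45 and 9.54. Its end arrays lie above every start array, and it was the 1 member of 9 called between start and end (0.52 ± 0.12, adjusted p = 0.00332). From midpoint to end Cd79a rose 1.99-fold (0.99 ± 0.12, adjusted p = 2.71e-07). Vpreb1 was not called at any step, with changes of -0.18 ± 0.19 at the midpoint and 0.19 ± 0.19 at the end. Its end arrays (10.32 to 10.44) nevertheless lie above its midpoint arrays (9.92 to 10.09). With arrays of the compared groups alone, that rise was 0.37 and was called (limma adjusted p = 0.0423).

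Of the signalling members in this course, Blnk read 9.36, 9.01 and 9.39 at the midpoint and 9.81, 9.76 and 9.75 at the end. It was not called down at the midpoint (-0.31 ± 0.13, adjusted p = 0.107) and rose by 0.52 ± 0.13 from there to the end (adjusted p = 0.00315). Syk, Btk and Plcg2 were not called at any step of the Bin-2 courses in the main fit, and their changes against the start lay between -0.08 and 0.30. Plcg2 was called down from the lonafarnib midpoint to the end with arrays of Bin-2 alone (-0.31, limma adjusted p = 0.0357). With lonafarnib, 4 of 9 members were called at the Bin-2 midpoint, all down, where 16.5% of all genes were called, 4.45% of all genes up and the rest down. The end against the start gave 1 of 9, beside 8.07%, and the end against the midpoint gave 5 of 9, all up, beside 29.7% of all genes, 19.8% being up. The midpoint arrays of this course are among those with compressed values. With quantile normalization the counts were again 4 down and 5 up. Fibroblast genes rose at this midpoint in 8 of 19 cases, from 5.07 to 5.15 at the start to 5.48 to 5.85, and were at 4.79 to 4.96 at the end. Macrophage genes stood at 5.54 to 5.83, 6.53 to 6.87 and 5.86 to 6.29, with 7 of 17 up at the midpoint, and mast cell genes at 4.33 to 4.57, 4.31 to 4.48 and 4.22 to 4.26, with Fcer1a and Ms4a2 under the dim reference at all 3 times. B-lineage genes dipped and came back with the receptor chains, at 8.59 to 8.69, 8.34 to 8.45 and 8.61 to 8.65, and the midpoint arrays do not overlap the others. Of these 19 genes 4 were called down and 0 up at the midpoint, and 7 up and 1 down from there to the end. The part of these markers in the dip was not tested.

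**Figure D3:**
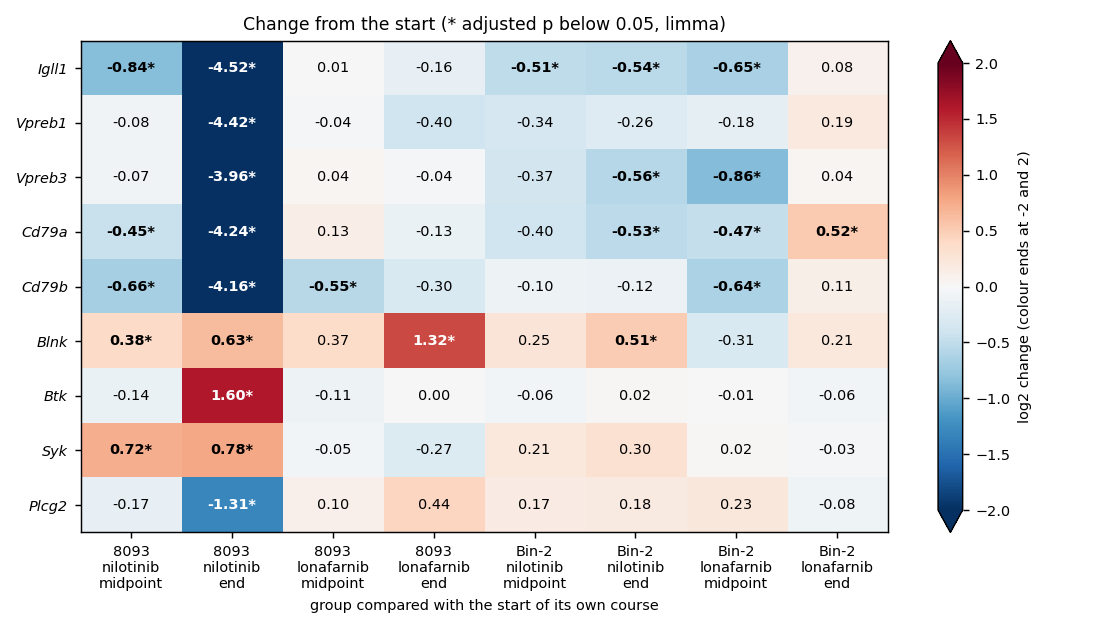
Log2 change of each member (rows) from the start of its own course in the 8 later groups (columns); colour gives the change, numbers print it and asterisks mark a limma adjusted p below 0.05. The 8093 nilotinib end column holds the 5 changes below -3.9, and the Blnk row is positive in 7 of 8 columns.

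The courses differed from each other by direct tests of the change from the start. At the 8093 end, nilotinib and lonafarnib differed for 9 of 9 members, beside 33.2% of all genes, by -4.36 ± 0.20 for Igll1 and by 1.59 ± 0.17 for Btk. For Blnk (-0.69) the drug-free starts themselves lay 0.38 apart, at 4.78 and 4.40, and the ends at 5.41 and 5.72. At the 8093 midpoint they differed for 3 of 9, beside 26.8%: Igll1 (-0.85 ± 0.18), Cd79a (-0.58 ± 0.17) and Syk (0.77 ± 0.17). The Cd79a call was lost with quantile normalization (-0.40, adjusted p = 0.0625). In Bin-2 the drugs differed at the midpoint for 0 of 9 by limma (3 at an unadjusted p below 0.05), beside 1.48% of all genes. At the Bin-2 end they differed for 3 of 9, beside 9.51%: Igll1 (-0.62 ± 0.18), Vpreb3 (-0.61 ± 0.19) and Cd79a (-1.05 ± 0.17). Cd79a is the member of this trio that fell under nilotinib and rose under lonafarnib. The Igll1 and Vpreb3 calls were both lost without nilotinib start replicate 3, nilotinib end replicate 1, lonafarnib start replicate 2 or lonafarnib end replicate 1, which leaves 1 of 9. Vpreb3 was lost in 9 of the 12 fits that each left out 1 array.

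Between the lines, the nilotinib end response differed for 8 of 9 members, beside 30.6% of all genes. The 5 receptor chains fell less in Bin-2, by 3.39 to 4.16 on the log2 scale. The changes of Btk (-1.57 ± 0.16) and Syk (-0.48 ± 0.18) were lower in Bin-2, and that of Plcg2 was higher by 1.49 ± 0.23. The Syk call, at an adjusted p of 0.0413, was lost in 9 of the 11 fits that each left out 1 array. Blnk was the exception, with a difference of -0.12 ± 0.20 and an interval of -0.52 to 0.28. At the nilotinib midpoint the lines differed for 2 of 9, Cd79b (0.56 ± 0.20) and Syk (-0.51 ± 0.17), beside 26.0% of all genes, so the share of members is no higher than that of all genes. The Cd79b call was lost with quantile normalization (0.35, adjusted p = 0.213) and in 5 of 12 fits without 1 array (up to 0.136), and the Syk call with median centring (-0.38, adjusted p = 0.105) and without 8093 midpoint replicate 3 (0.0764). At the lonafarnib midpoint they differed for 4 of 9, beside 4.20%: Vpreb3 (-0.90 ± 0.19), Blnk (-0.68 ± 0.18), Igll1 (-0.66 ± 0.18) and Cd79a (-0.60 ± 0.17). With median centring 1 of these 4 was called, Vpreb3, and leaving out single arrays gave 1 to 3, with Igll1 and Cd79a each lost in 9 of 12 such fits and Blnk in 6. At the lonafarnib end they differed for 2 of 9, beside 4.61%: Blnk (-1.11 ± 0.20), whose rise was larger in 8093, and Cd79a (0.65 ± 0.18). The Cd79a call was lost in 7 of the 11 fits that each left out 1 array (adjusted p from 0.0502 to 0.159). The Blnk responses of 8093 to lonafarnib start from values under the dim reference, so their sizes depend on that floor.

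Adaptors related to BLNK had much larger changes than Blnk at the 8093 nilotinib end, though the difference between genes was not tested. The family of SLP-76 adaptors is made of Blnk, Lcp2 (SLP-76 itself, used in T cells, mast cells and platelets) and Clnk. Lat and Lat2 encode membrane scaffolds. Lcp2 read 5.44, 5.10 and 5.28 at the 8093 nilotinib start, 8.48, 9.27 and 8.20 at the midpoint, and 10.88 and 10.90 at the end. These groups are separate, and the end lies 5.61 ± 0.22 above the start. Lat2 rose by 5.72 ± 0.24, Lat by 4.03 ± 0.20 and Clnk by 3.00 ± 0.18 at the same end. Blnk changed there by 0.63. Clnk was picked as a relative of Blnk after its values were seen.

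Bin-2 differed from 8093 before drug as well for Lcp2, Lat2 and Clnk. Lat had start means of 6.16 and 6.02 in Bin-2, beside 5.92 and 6.01 in 8093. Lcp2 was higher in Bin-2 by 1.99 ± 0.14, Lat2 by 2.05 ± 0.15 and Clnk by 1.28 ± 0.11, with Lcp2 at 7.04 to 7.51 in the Bin-2 start arrays and 5.08 to 5.48 in 8093. In the 8093 lonafarnib course, Lcp2 rose as Blnk did (1.72 ± 0.22 at the end), and at the Bin-2 nilotinib end its change was 0.56 ± 0.20 (adjusted p = 0.0777). At the 8093 lonafarnib end Lat2 also rose (1.41 ± 0.24), and Clnk fell by 1.38 ± 0.18 to 4.85 and 4.72, about the dim reference. The mean of Lat went from 6.01 at that start to 5.12 at that end. In Bin-2 with nilotinib the mean of Clnk went from 7.51 at the start to 6.74 at the end.

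**Figure D4:**
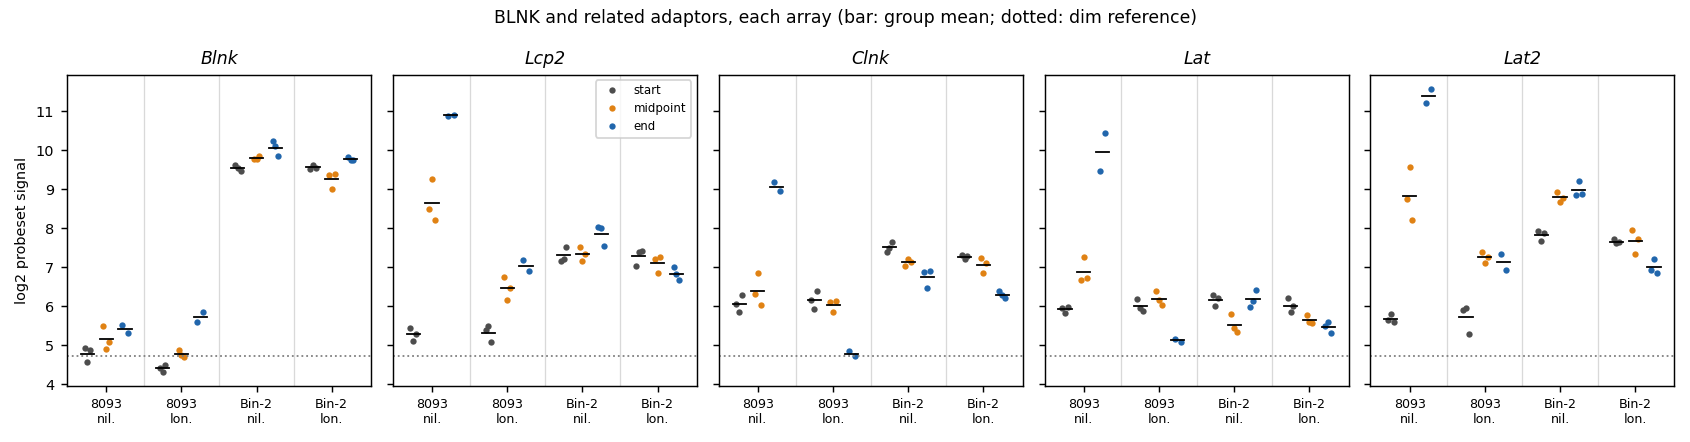
Log2 probeset signal (y axis) of Blnk, Lcp2, Clnk, Lat and Lat2 in all 34 arrays by line and drug (x axis; nil. is nilotinib, lon. is lonafarnib); points are arrays, bars group means and the dotted line the dim reference of 4.711. Blnk splits by line, while the other 4 adaptors peak at the 8093 nilotinib end.

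In the wider adaptor list, 11 of 21 measured genes rose and 5 fell at the 8093 nilotinib end, beside 19.6% of all genes up and 24.9% down, and the median change was 0.70 beside -0.15 over all genes. Grap, an adaptor of the GRB2 family, fell by 2.00 ± 0.18. At the Bin-2 nilotinib end 5 of 21 rose and 2 fell, beside 4.95% of all genes up and 3.94% down. The lonafarnib end of 8093 gave 5 up and 4 down, where 8.71% of all genes were called either way, and that of Bin-2 gave 1 up and 1 down, where 8.07% were.

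Among 13 measured surface partners of the receptor, 5 rose and 4 fell at the 8093 nilotinib end (median -0.20), beside 19.6% of all genes up and 24.9% down. The inhibitory receptors Fcgr2b and Pirb rose by 4.50 ± 0.41 and 3.99 ± 0.34, and Fcrl1, an Fc receptor-like protein of B cells, fell by 2.10 ± 0.15. In Bin-2 under nilotinib, 3 of 13 were called up and 0 down, beside 4.95% and 3.94% of all genes. These were Fcgr2b (2.70 ± 0.36), Pirb (1.88 ± 0.30) and Cd22, whose means of 4.26 and 4.70 both lie under the dim reference. Fcgr2b and Pirb are also expressed by mast cells and macrophages, whose markers were high in these arrays. The part of those cells in the Fcgr2b and Pirb signals was not tested.

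Of 18 measured kinases and phosphatases that act next to the receptor, 8 rose and 6 fell at the 8093 nilotinib end (median 0.13), beside the same 19.6% and 24.9% of all genes. Blk, a SRC family kinase of B cells, read 9.36, 9.48 and 9.35 at the start, 11.40, 10.80 and 11.18 at the midpoint, and 6.13 and 6.24 at the end. The midpoint is the highest and the end the lowest of the 12 groups. Blk rose by 1.73 ± 0.12 and then fell to 3.21 ± 0.13 below the start. It also rose in 8093 with lonafarnib, by 1.15 ± 0.12 at the midpoint and 0.81 ± 0.13 at the end. The phosphatase relative Ubash3b rose by 4.72 ± 0.31, and Fyn fell by 2.07 ± 0.13.

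Among 26 measured genes downstream of PLCG2, 15 rose and 6 fell at the 8093 nilotinib end (median 0.56), beside 19.6% of all genes up and 24.9% down. The share that fell is near that of all genes. The Rasgrp genes of this list did not share a direction. Rasgrp3 read 9.27, 9.54 and 9.44 at the start, 4.60, 4.15 and 3.80 at the midpoint, and 3.44 and 3.43 at the end. It was under the dim reference from the midpoint on and was at least 26.1-fold lower at the end (limma adjusted p = 1.39e-16). Rasgrp2 fell by 3.64 ± 0.13 and Rasgrp1 rose by 3.08 ± 0.19. Plcg1, the other phospholipase C gamma gene, was chosen as a relative of Plcg2 after its values were seen. It read 6.86, 6.88 and 6.91 at the start and 9.85 and 10.01 at the end, a rise of 3.04 ± 0.16 where Plcg2 fell. Plcg1 also rose at the 8093 lonafarnib end (1.20 ± 0.16), the Bin-2 nilotinib end (0.77 ± 0.14) and the Bin-2 lonafarnib end (0.48 ± 0.14), where Plcg2 was not called.

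Among themselves, the members split into a receptor block and the rest over the 12 group means. Pearson's r was 0.981 for Igll1 with Vpreb1, 0.973 for Igll1 with Cd79b and 0.983 for Vpreb3 with Cd79b. Btk ran against the receptor chains, at -0.98 with Vpreb1. These values lean on 1 group, the 8093 nilotinib end, and all points share arrays and lines. Within the 6 Bin-2 groups, where the receptor chains had no fall of that size, Igll1 gave 0.905 with Vpreb1, 0.924 with Vpreb3 and 0.900 with Cd79a. Cd79b was less close to the other chains there, at 0.866 with Vpreb3, 0.653 with Igll1, 0.478 with Cd79a and 0.381 with Vpreb1, beside 0.668 with Blnk. Within the 6 groups of 8093, Igll1 and Cd79a gave 0.997. The r of Plcg2 with Igll1 was -0.986 in Bin-2, 0.912 in 8093 and 0.710 over the 12 groups. In Bin-2 the group means of Plcg2 spanned only 9.96 to 10.27 and no step was called in the main fit. The 8093 value includes the nilotinib end, its lowest group. Blnk was tied to none of the receptor chains, with r from -0.09 to 0.37 over the 12 groups.

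The genes whose group means were most like those of a member were searched among 13379 genes above the dim reference. Closest to Igll1 were Septin1 (0.992), Mzb1 (0.988), which encodes a chaperone of immunoglobulin assembly, and Slc16a1 (0.987). Vpreb1 was matched by Dpp4, Pde2a and the B cell factor gene Ebf1, all at 0.994. Cd79a was matched by Prkch (0.991), Camk2d (0.990) and Thrb (0.988), and Cd79b by Mzb1 (0.985), Vpreb3 (0.983) and Tarbp1 (0.980). Vpreb3 was matched by Tarbp1 (0.988), Carmil2 (0.986) and Cd79b (0.983). Blnk, which follows the line, had Zbtb16 (0.984), Ly86 (0.983) and Msh5 (0.979). Syk was matched by Mef2a (0.960) and by the myeloid genes Tyrobp (0.958) and Fes (0.957). Btk had Uck1 (0.989), Spcs3 (0.986) and a probeset annotated as the olfactory receptor gene Olfr1033 (0.986), an annotation that may be old. Plcg2 had Anp32e (0.982), Nrip1 (0.956) and Tra2b (0.952). Each r is over 12 group means of the same 34 arrays and is given as a description.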

How the data were processed

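Affymetrix Mouse Gene 1.0 ST arrays were hybridized with RNA of 34 samples. The authors deposited log2 probeset signals, which the submitters' processing notes tie to Partek (version not given). How background was corrected and arrays were normalized is not given in the sources used here. Signals ranged from 1.02 to 14.37, and column medians from 5.21 to 5.44. Of 35557 probesets, 21789 had 1 gene symbol in the platform annotation, 1621 had several and 12147 none. Where a gene had several probesets (999 genes), the one with the highest mean was used, and 19938 genes were tested.

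Group means of 12 groups were fitted over 34 arrays in limma 3.58.1 (R 4.3.3) with moderated variances. Tests were two-sided, Benjamini-Hochberg adjusted over all genes at 0.05, for 23 comparisons, and intervals cover 95%. The fit was tested on simulated data. Fold changes are on this log2 scale. Arrays of a group came from separate plates of the line, and the number of arrays limits the precision. Same-numbered samples showed little shared deviation (r from -0.183 to 0.164 over 32 pairs, 2 above 0.1). Paired by plate letter, 4 of 32 were above 0.1. In the 8093 lonafarnib course the median r was 0.090 for same-numbered pairs and -0.037 for other pairs. The main fit used no replicate block.

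The members and gene lists were chosen with earlier results of these data known. Named genes are the members, the 3 largest called changes of each pathway list and the largest the other way, up to 4 genes of a marker list that moved with a result, the 3 genes most like each member, and Abl1, Bcl6, Il7r, Rag1, Pax5, Ebf1 and Ighm. Motifs were searched in RefSeq promoters (GRCm38.p6). The alternatives were quantile normalization, median centring, a trended robust prior, dim genes left out, other choices of probeset, replicate blocks, arrays of 1 line or of the compared groups, and each array left out.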

Additional observations from a re-analysis of the deposited data

Results flagged for a closer look

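In 31 cases a member's change from its start differed between both drugs in 1 line, or between both lines under 1 drug, by a test of the difference itself (limma, adjusted p below 0.05 over all genes). Values are differences of log2 changes.

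Between the drugs, nilotinib minus lonafarnib, 8093 differed at the end for Igll1 (-4.36), Vpreb1 (-4.02), Vpreb3 (-3.92), Cd79a (-4.12), Cd79b (-3.86), Blnk (-0.69), Btk (1.59), Syk (1.05) and Plcg2 (-1.74). The Blnk difference was -0.60 without nilotinib end replicate 2 (adjusted p = 0.0503) and -0.57 without lonafarnib end replicate 2 (adjusted p = 0.0730). The drug-free 8093 starts differed by 0.38 for Blnk and for Plcg2 (both lower in the lonafarnib start), and Blnk lay under the dim reference in that start, so the ends of Blnk differ by less, at 5.41 and 5.72. At the 8093 midpoint Igll1 (-0.85), Cd79a (-0.58) and Syk (0.77) differed, and the Cd79a call was lost with quantile normalization. In Bin-2 the differences were at the end, for Igll1 (-0.62), Vpreb3 (-0.61) and Cd79a (-1.05), and Cd79a moved in opposite directions under both drugs.

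Between the lines, Bin-2 minus 8093, the nilotinib end differed for Igll1 (3.98), Vpreb1 (4.16), Vpreb3 (3.39), Cd79a (3.72), Cd79b (4.04), Btk (-1.57), Syk (-0.48) and Plcg2 (1.49). The nilotinib midpoint differed for Cd79b (0.56) and Syk (-0.51), both lost under some alternatives. Lonafarnib differed at the midpoint for Igll1 (-0.66), Vpreb3 (-0.90), Cd79a (-0.60) and Blnk (-0.68), and at the end for Cd79a (0.65) and Blnk (-1.11). The Cd79a call at that end was lost in 7 of the 11 fits without 1 array. Doses and end days differed between the lines, as did the day and viability of the lonafarnib midpoint. Their part in these differences cannot be told apart from that of the line.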

How the results depend on the processing

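Over 3717 values of a member in a comparison under an alternative, 3603 kept their side of the threshold, 92 lost a call and 22 gained one. Of the values called in either fit, 0 reversed direction. Direction was not compared for values called in neither fit. Counts of called members that moved by over 1.5 times were these. At the 8093 nilotinib midpoint 5 became 3 with quantile normalization. At the 8093 lonafarnib midpoint 1 became 2 with a trended robust prior, with dim genes left out, with the compared groups alone and without the compressed arrays (both last ones chosen after seeing the data). At the Bin-2 nilotinib midpoint 1 became 2 with median centring, the trended prior and dim genes left out, and 3 with arrays of the line alone. For the line difference in response, 2 became 1 at the nilotinib midpoint with quantile normalization or median centring, and 4 became 1 at the lonafarnib midpoint with median centring. The cause was not tested.

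With a replicate block by title number, the drug difference at the Bin-2 end went from 3 members to 1, 4 single calls were lost and 1 gained of 180 values. A block by plate letter lost 1 and gained 1. In both 8093 ends the title numbers and plate letters differ. No paired analysis was possible for the line and start comparisons because the block cannot be estimated there.

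Leaving out single arrays gave these ranges of called members. In 8093 they were 4 to 6 (nilotinib midpoint), 9 to 9 (end), 7 to 8 (end against midpoint), and with lonafarnib 0 to 1, 1 to 2 and 1 to 1. In Bin-2 they were 0 to 1, 2 to 5 and 0 to 0, and with lonafarnib 4 to 4, 1 to 1 and 5 to 5. Drug differences gave 3 to 3 and 8 to 9 in 8093 and 0 to 0 and 1 to 4 in Bin-2. Line differences gave 4 to 4 at the start, 1 to 2 and 7 to 8 with nilotinib, and 1 to 3 and 1 to 2 with lonafarnib. Both 8093 ends hold 2 arrays, so leaving 1 out assumes the lone array varies like the other groups. Signals near the dim reference, as for Blnk in 8093, bound what can be seen.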

Other observations

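The transcription factors that turn on the receptor genes were followed beside them. In 8093 under nilotinib, Ebf1, which acts on the Igll1, Vpreb1 and Cd79a promoters, changed by -0.05 ± 0.13 at the midpoint (adjusted p = 0.771) and fell by 4.37 ± 0.15 at the end (limma adjusted p = 3.59e-20). Pax5, the B cell commitment factor, rose by 1.39 ± 0.19 at the midpoint, while from start to end it fell by 2.97 ± 0.21. Rag1, the recombinase, ended under the dim reference, at least 18.4-fold below its start (adjusted p = 2.05e-16), and Il7r, the interleukin-7 receptor chain, fell by 2.23 ± 0.18 at that end. Bcl6, a repressor that acts beside the pre-B cell receptor, started just under the dim reference and rose by at least 0.76 at the midpoint (adjusted p = 0.000723) and 1.52 at the end (adjusted p = 2.43e-07).

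With lonafarnib, 8093 kept Ebf1 (0.01 ± 0.15) and Pax5 (-0.14 ± 0.21) near their start at the end, and neither was called, while Rag1 fell by 2.13 ± 0.24. Il7r fell by 1.49 ± 0.16 at that midpoint. In Bin-2 under nilotinib, Ebf1 fell by 0.55 ± 0.13 (adjusted p = 0.00678) and Bcl6 rose by 0.99 ± 0.19 at the end. In Bin-2 with lonafarnib, the changes of Bcl6 were -0.10 ± 0.19 and -0.12 ± 0.19 and were not called. Abl1, the mouse gene of the kinase that nilotinib inhibits, fell by 0.82 ± 0.10 at the 8093 nilotinib end. It rose by 0.30 ± 0.09 at the Bin-2 lonafarnib midpoint and by 0.31 ± 0.09 at its end.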
